A study of Mus musculus with 2 samples.

Results

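The genes described here are 34 mouse genes of the endoplasmic reticulum (ER): its chaperones, its protein-folding and protein-degrading enzymes, its translocation channel, and the sensors of the unfolded protein response. They were taken by name from a list and found on the arrays through the RefSeq transcript given for each probe. All 34 were found, among 20884 genes that could be named, and all 34 gave signals well above background on both arrays. Together they have 43 probes, with 27 genes read by 1 probe and 7 genes by several.

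The series holds 2 single-colour Agilent arrays, 1 per cell population, both made from cells of the epididymal fat of male C57/BL mice. The fat was digested with collagenase. Cells that floated in a brief first spin but sedimented in a second one are the small proliferative adipocytes, and cells of the lower phase of the first spin are the stromal vascular cells. Both were cultured to 90% confluency, kept for 3 days in differentiation medium with insulin, dexamethasone and IBMX, and then for 2 days in plain medium. The differentiated cells are called SPAD (from the small proliferative adipocytes) and SVCD (from the stromal vascular cells). The description fields name the populations without the word differentiated, and the titles and the protocol were followed. The sources used here do not say how many mice or cultures went into each RNA. Each group has 1 array, so the differences given here lack a replicate check and could not be tested. Both are mixed cultures, in which fewer cells of a type and less RNA per cell cannot be told apart.

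The ER is where secreted and membrane proteins are folded. They enter through the Sec61 channel, are held by chaperones such as BiP (the product of Hspa5), receive disulfide bonds from isomerases, and are sent to the proteasome when folding fails. When unfolded protein builds up, the sensors encoded by Ern1, Eif2ak3 and Atf6 start the unfolded protein response, which slows translation and switches on chaperone and degradation genes. Ern1 acts by splicing the messenger RNA of the transcription factor Xbp1, and Eif2ak3 (PERK) by favouring translation of Atf4. Fat cells secrete large amounts of protein, adiponectin among them, and depend on this machinery.

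Several promoters of these genes carry the ER stress element, the DNA sequence through which ATF6 acts together with NF-Y. It was searched for as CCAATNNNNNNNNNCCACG on both strands, in windows from 250 bases before to 50 bases after each annotated start. The windows are from RefSeq on GRCm38.p6, whereas the array design was annotated on mm9, so only gene names connect the promoters with the signals. Of the 34 genes 29 had a window, and 10 of these 29 carried the element, 1 of them in 2 copies. Over all 27025 genes with a window, 37 (0.137%) carried it. The elements are shown because ATF6 acts through this sequence, with capitals for the fixed bases, each written along its own strand.
Hspa5, chr2:34772025-34772043, plus strand: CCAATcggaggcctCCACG
Calr, chr8:84847075-84847093, plus strand: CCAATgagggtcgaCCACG
Derl3, chr10:75893242-75893260, minus strand: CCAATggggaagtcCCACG
Hsp90b1, chr10:86705638-86705656, minus strand: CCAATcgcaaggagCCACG
Hsp90b1, chr10:86705533-86705551, plus strand: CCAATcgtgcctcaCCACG
Canx, chr11:50325800-50325818, minus strand: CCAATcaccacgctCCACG
Pdia6, chr12:17266491-17266509, plus strand: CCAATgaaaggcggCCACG
Ero1b, chr13:12565682-12565700, minus strand: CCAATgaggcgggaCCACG
Dnajc3, chr14:118937827-118937845, plus strand: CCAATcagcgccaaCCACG
Creld2, chr15:88819520-88819538, minus strand: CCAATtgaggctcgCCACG
Syvn1, chr19:6046532-6046550, plus strand: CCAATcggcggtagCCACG

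A shorter related sequence, the ER stress element II, was searched for as ATTGG, then any base, then CCACG, on both strands, and stood in 12 of 27025 genes (0.0444%), 2 of them among the 29. Both copies are shown because they belong to genes without the longer element, so that no match of one overlaps a match of the other.
Herpud1, chr8:94386377-94386387, plus strand: ATTGGgCCACG
Dnajb11, chr16:22857852-22857862, plus strand: ATTGGcCCACG
The unfolded protein response element, TGACGTGG, stood in 193 genes (0.714%) and in none of the 29. Hyou1, Manf, Atf6, Derl1 and Sec61a1 had no window.

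Among the ER genes, 4 of 34 (11.8%) passed 2-fold upwards in SPAD, against 14.4% of all genes detected on both arrays, and none passed it downwards, against 13.3%. Dnajb9, a J-domain partner of BiP, was 5.92-fold higher, the sensor gene Ern1 3.01-fold, Derl1 of the degradation machinery 2.64-fold on its brighter probe, and the disulfide isomerase gene P4hb 2.42-fold. The other 30 lay within 2-fold. BiP (Hspa5) was 1.35-fold higher, a direction that turned with spike-in scaling (log2 difference -0.40), and Sdf2l1, another luminal folding factor, had the lowest value at 1.98-fold lower. These 4 kept their direction with spike-in scaling, but then Dnajb9 was the only one of the 34 at least 2-fold higher (5.25% of all genes were) and 17 of the 34 were at least 2-fold lower (37.8% of all genes were).

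Values are differences of log2 processed intensity, SPAD minus SVCD, after subtracting each array's 75th percentile (622 for SPAD, 678 for SVCD in units of intensity). This scaling adds 0.13 to the plain log2 ratio of the 2 intensities. The ± values are the error that the scanner software gives for each spot's signal, combined over both arrays. It was 0.20 for most of these genes and at most 0.24, so 2 errors act nearly as a fixed cutoff. By this measure 15 of the 34 genes differed by more than 2 errors, 7 higher and 8 lower in SPAD. That is 44.1% of the 34, against 58.1% of all genes detected on both arrays (31.4% higher and 26.7% lower). Repeat spots of 1 probe scatter less (an SD of the log2 difference of 0.04 for bright probes and 0.24 for the dimmest), and 31 of the 34 genes (91.2%) exceeded 2 of those errors, against 81.0% of all genes. Errors named below without a further word are scanner errors, and a gene within 2 of them can still exceed 2 repeat-spot errors. Neither error covers differences between cultures or labelling reactions.

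The shares for all genes rest on 14074 genes detected on both arrays, of which 2029 exceeded 2-fold in the SPAD direction and 1874 in the SVCD direction. Taken in either direction, 27.7% of them lay past 2-fold. The share of the 34 genes that was higher is near that of all genes. The median log2 difference was -0.17 for the 34 genes and 0.07 for all genes detected on both arrays. The median size of the difference, in either direction, was 0.31 and 0.54.

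**Figure D1:**
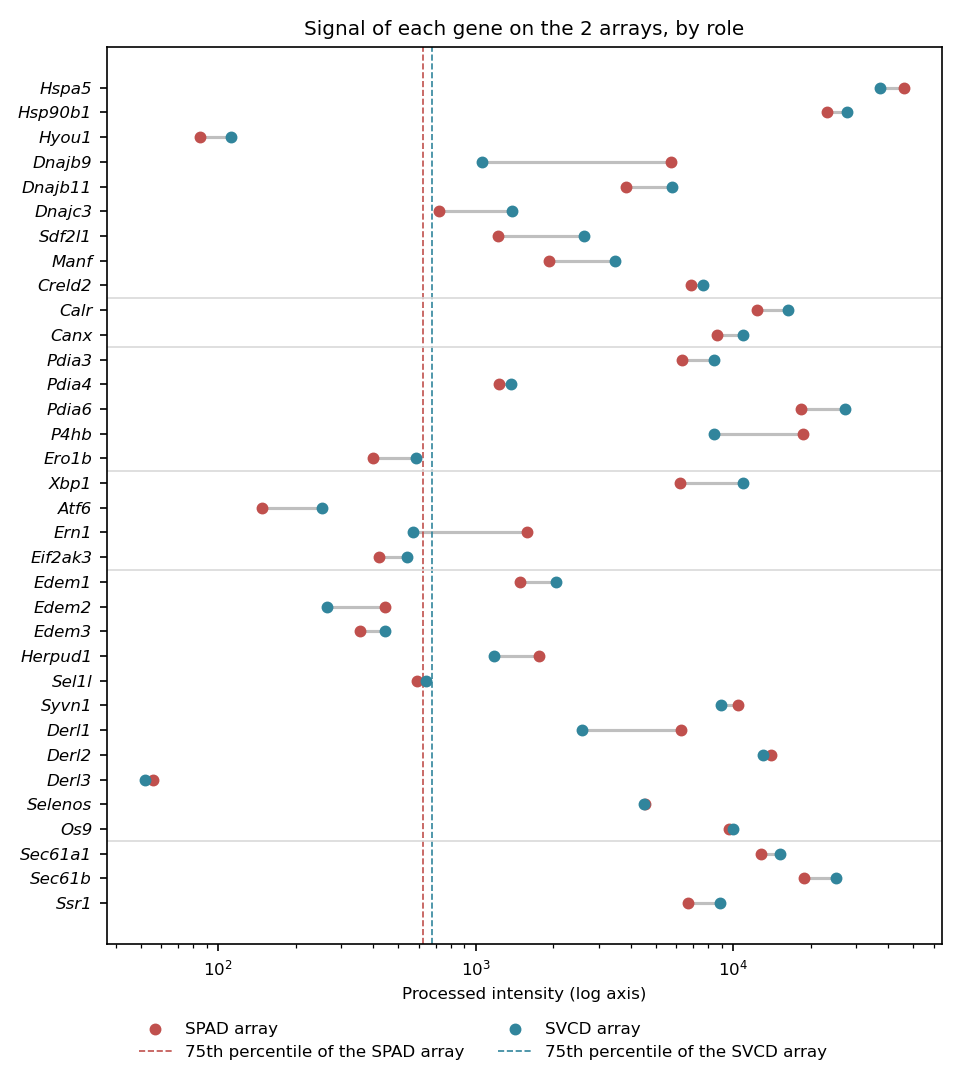
Processed intensity of each gene on the SPAD array (red) and the SVCD array (blue), on a log axis, with genes ordered by role and dashed lines at each array's 75th percentile (622 and 678). Most pairs of points lie close together, whereas Dnajb9 (5725 and 1055), P4hb (18698 and 8412), Ern1 (1575 and 571) and Derl1 (6281 and 2591) are clearly brighter in SPAD.

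Among the luminal chaperones and their partners, 1 of 9 was at least 2-fold higher (14.4% of all genes were) and 7 of 9 were below 0. Their median was -0.28. Of all 34 genes 21 were below 0, while 53.7% of all genes detected on both arrays were above 0. Hspa5, whose product is the main chaperone of the ER lumen, gave 46019 in SPAD and 37276 in SVCD, in units of intensity (log2 difference 0.43 ± 0.20). Hsp90b1, the ER member of the HSP90 family, gave 23023 and 27722 (-0.14 ± 0.20). The pair thus pointed in opposite directions, and the Hsp90b1 value lay within its scanner error, though beyond 2 repeat-spot errors.

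Dnajb9 had the largest difference of the set. Its brighter probe read 5725 in SPAD and 1055 in SVCD (2.57 ± 0.20), and its second probe 619 and 126 (2.42 ± 0.21). Both probes therefore gave the same picture. Of the 14074 genes, 354 had a larger difference in this direction. Dnajb9 encodes a J protein that brings BiP to misfolded proteins and to the luminal part of the Ern1 product, and it is a known target of spliced Xbp1.

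The remaining J proteins went the other way. Dnajc3, which encodes a BiP partner also known as an inhibitor of PERK, read 719 in SPAD and 1381 in SVCD (-0.81 ± 0.20). Dnajb11, which helps BiP bind its clients, read 3844 and 5791 (-0.47 ± 0.20), and a second Dnajb11 probe, for another transcript, was well above background in SPAD alone at an intensity of only 16.1. Averaging both Dnajb11 probes turned its sign (0.28).

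Small luminal factors were lower or level. Sdf2l1, a component of BiP complexes, read 1223 in SPAD and 2636 in SVCD (-0.98 ± 0.20). Manf, a secreted factor induced by ER stress, read 1931 and 3482 (-0.72 ± 0.20). Both are commonly used as indicators of the unfolded protein response. Hyou1, a large chaperone related to heat shock protein 70, read 84.6 and 112 (-0.28 ± 0.21), within 2 errors of 0.

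Creld2, a further stress-induced luminal protein gene, and Os9, a lectin gene of the degradation pathway, were each printed 10 times on each array, so their spots show the scatter directly. Creld2 read 6498 to 7442 in SPAD (median 6705) and 7282 to 8370 in SVCD (median 7546). Os9 read 9086 to 9990 (median 9619) and 9233 to 10458 (median 10008). The ranges of the 2 arrays overlapped for both genes, although before scaling each spot was dimmer in SPAD than the matching spot in SVCD. After scaling, the log2 difference was -0.04 for Creld2 and 0.07 for Os9, each beyond 2 repeat-spot errors but within the scanner error. Os9 was dimmer in SPAD before scaling and turned below 0 again with median, quantile and spike-in scaling.

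**Figure D2:**
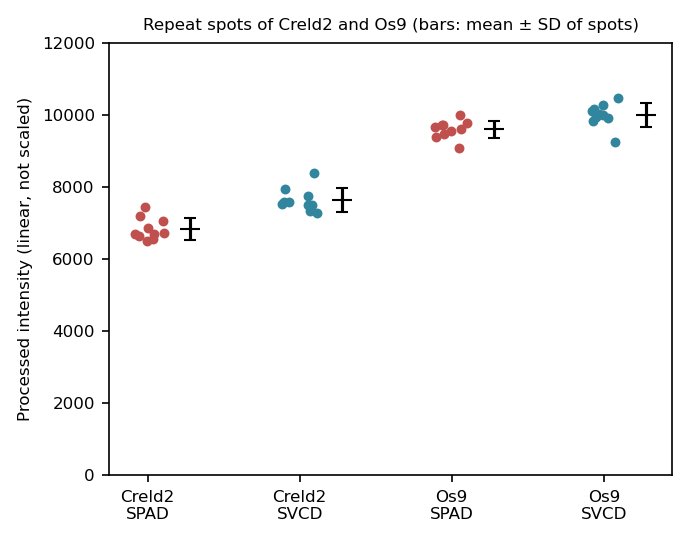
Processed intensity (linear, not scaled) of the 10 spots of Creld2 and of Os9 on the SPAD array (red) and the SVCD array (blue), with bars for the mean and SD of the spots. The means are 6827 and 7630 for Creld2 and 9590 and 9990 for Os9, and the ranges of the 2 arrays overlap for each gene.

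The lectin chaperones, which hold glycoproteins during folding, differed little. Calr (calreticulin) read 12317 in SPAD and 16369 in SVCD (-0.28 ± 0.20). Canx (calnexin), its membrane-bound relative, read 8674 and 10920 (-0.21 ± 0.20). Both lay within 2 errors of 0.

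Of the isomerases and their oxidase, P4hb was the only one past 2-fold. P4hb encodes the classical protein disulfide isomerase, which is also a subunit of collagen prolyl 4-hydroxylase and of the microsomal triglyceride transfer protein complex. It read 18698 in SPAD and 8412 in SVCD (1.28 ± 0.20). Pdia6 read 18286 and 27217 (-0.45 ± 0.20), with -0.89 on a second probe, and Ero1b, an oxidase that recharges the isomerases, 398 and 587 (-0.43 ± 0.20). These 2 were thus lower in SPAD by more than 2 errors. Pdia3, the isomerase that works with calnexin and calreticulin, read 6308 and 8392 (-0.29 ± 0.20), and Pdia4 1226 and 1370 (-0.03 ± 0.20).

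The sensors pointed in different directions. Ern1 read 1575 in SPAD and 571 in SVCD (1.59 ± 0.20). Xbp1, whose messenger RNA the Ern1 product splices, read 6221 and 10900 (-0.68 ± 0.20), so that the sensor was higher and its substrate lower in SPAD. The 1 Xbp1 probe gives the signal of the transcript, and splicing was not analysed here. Atf6, the sensor that is cut in the Golgi to release a transcription factor, read 147 and 253 (-0.65 ± 0.21), and Eif2ak3 421 and 540 (-0.23 ± 0.20).

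Of the 11 degradation genes 9 were above 0 (53.7% of all genes were), and 1 (9.09%) was at least 2-fold higher (14.4% of all genes were). Their median was 0.22. Of the 11, 3 were higher by more than 2 errors, as were 31.4% of all genes. The contrast with the chaperones was not tested. With spike-in scaling 2 of the 11 values were above 0. Derl1, a membrane component of the retrotranslocation machinery, read 6281 in SPAD and 2591 in SVCD on its brighter probe (1.40 ± 0.20), but 1644 and 1525 on another probe of the same transcript (0.23 ± 0.20). The 2 Derl1 probes disagree by more than 1 log2 unit, and with the mean of both Derl1 is no longer past 2-fold. Edem2, which trims mannose from glycoproteins marked for degradation, read 446 and 265 (0.88 ± 0.20). Herpud1, an ER stress-induced scaffold of the ubiquitin ligase complex, read 1762 and 1180 (0.70 ± 0.20). Edem2 and Herpud1 were higher by more than 2 errors but under 2-fold, and Herpud1 was at -0.13 with spike-in scaling.

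The other degradation genes lay within 2 errors of 0. Syvn1, the ubiquitin ligase of the pathway, read 10432 in SPAD and 8974 in SVCD (0.34 ± 0.20), and Sel1l, its adaptor, 593 and 639 (0.02 ± 0.20). Derl2 read 13951 and 13034 (0.22 ± 0.20), with 0.36 and -0.16 on further probes, and Derl3, the dimmest of the set, 55.6 and 51.8 (0.23 ± 0.24). Selenos, a selenoprotein of the same membrane complex, read 4534 and 4506 (0.13 ± 0.20). Edem1 and Edem3, relatives of Edem2, were below 0: Edem1 read 1483 and 2053 (-0.34 ± 0.20) and Edem3 354 and 444 (-0.20 ± 0.20). The 3 EDEM genes thus did not share a direction.

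The translocation genes differed by less than 2 errors. Sec61a1, the pore-forming subunit, read 12850 in SPAD and 15173 in SVCD (-0.11 ± 0.20). Sec61b, a small subunit, read 18823 and 25014 (-0.28 ± 0.20), with -0.12 on another probe. Ssr1, of the translocon-associated protein complex, read 6698 and 8911 (-0.29 ± 0.20), and its further probes, both dim, gave -0.63 and 0.19.

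**Figure D3:**
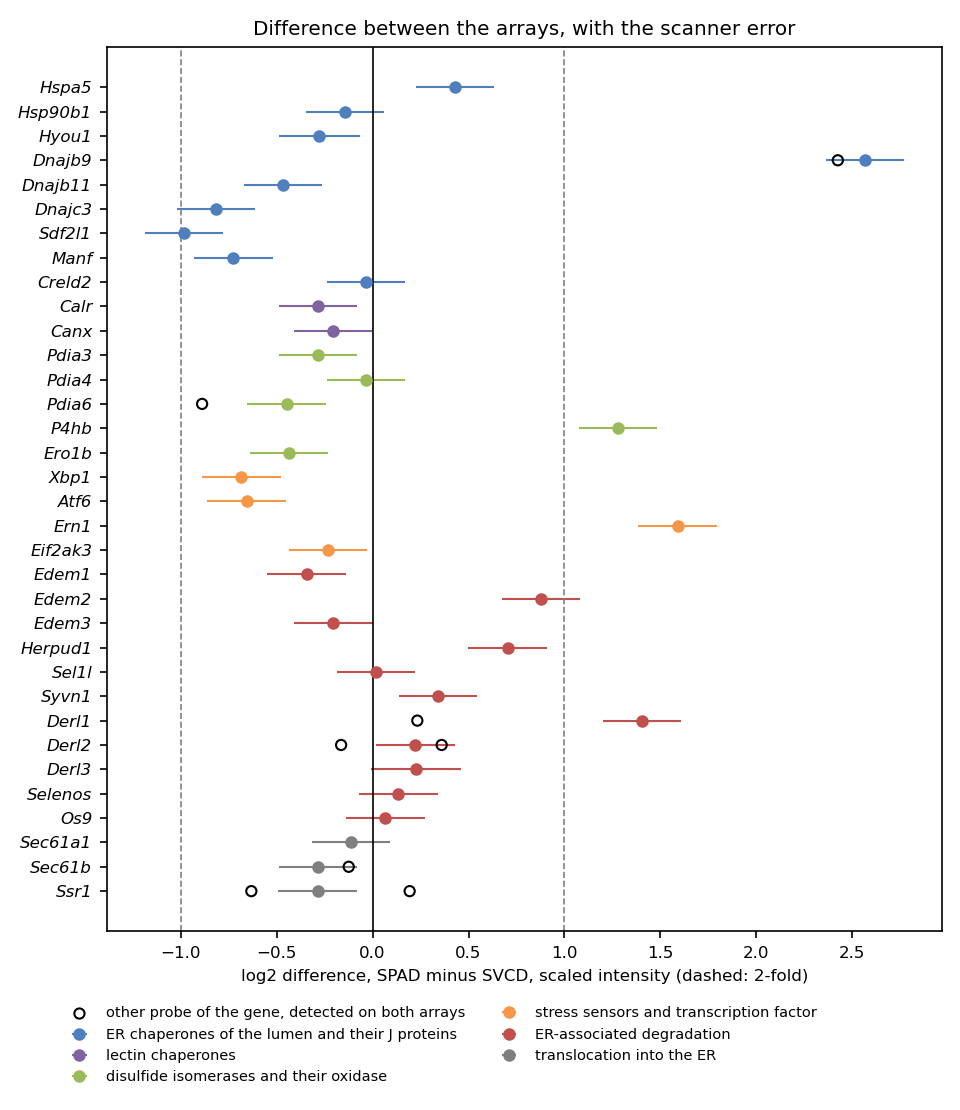
The log2 difference of scaled intensity (SPAD minus SVCD) of each gene with the scanner error as a bar, coloured by role, with open circles for further probes detected on both arrays and dashed lines at 2-fold. Dnajb9 (2.57), Ern1 (1.59), Derl1 (1.40) and P4hb (1.28) lie to the right of the 2-fold line, Sdf2l1 (-0.98) lies just inside it on the left, and the second Derl1 probe (0.23) lies far from the first.

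Of the 10 genes with an ER stress element none was past 2-fold in either direction, against 27.7% of all genes. The median size of their difference (0.31) was close to that of the genes with a window but no such element (0.29). Their median log2 difference was -0.17, and their values ran from -0.81 (Dnajc3) to 0.43 (Hspa5). The 19 genes with a window but no such element had a median of -0.03 and ran from -0.98 to 2.57. Of these, 3 (15.8%) were at least 2-fold higher (Dnajb9, Ern1 and P4hb), near the 14.4% of all genes. Herpud1 and Dnajb11, which carry the shorter element, had values of 0.70 and -0.47. Of 27 other genes that carry the longer element, 15 were named on the arrays and 9 were detected. Of these 9, 3 (33.3%) passed 2-fold upwards and 0 downwards, against 14.4% and 13.3% of all genes. A match of letters is a description of the window and was not tested for binding.

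The 250 bases before the start are given for 2 genes that carry the element (capitals) and for Dnajb9, which has the largest difference and none of the sequences searched. The Hspa5 window is chr2:34771840-34772089 on the plus strand, that of Hsp90b1 chr10:86705445-86705694 on the minus strand and that of Dnajb9 chr12:44210069-44210318 on the minus strand, all on GRCm38.p6 and written along the gene.
Hspa5: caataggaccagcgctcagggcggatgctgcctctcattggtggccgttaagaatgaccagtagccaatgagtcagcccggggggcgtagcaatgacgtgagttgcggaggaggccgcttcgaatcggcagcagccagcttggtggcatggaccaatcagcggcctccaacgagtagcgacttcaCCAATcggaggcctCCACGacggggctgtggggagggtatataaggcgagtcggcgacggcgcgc
Hsp90b1: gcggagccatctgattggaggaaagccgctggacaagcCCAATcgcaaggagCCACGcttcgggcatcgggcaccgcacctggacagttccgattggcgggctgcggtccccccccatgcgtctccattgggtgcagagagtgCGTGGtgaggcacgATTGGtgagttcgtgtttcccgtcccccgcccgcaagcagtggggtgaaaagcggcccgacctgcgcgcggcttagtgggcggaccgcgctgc
Dnajb9: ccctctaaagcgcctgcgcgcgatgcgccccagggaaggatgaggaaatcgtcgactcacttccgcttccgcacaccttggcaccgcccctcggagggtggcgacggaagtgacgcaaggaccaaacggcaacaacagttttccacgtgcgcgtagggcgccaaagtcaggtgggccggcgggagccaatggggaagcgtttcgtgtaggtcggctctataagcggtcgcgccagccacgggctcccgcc

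**Figure D4:**
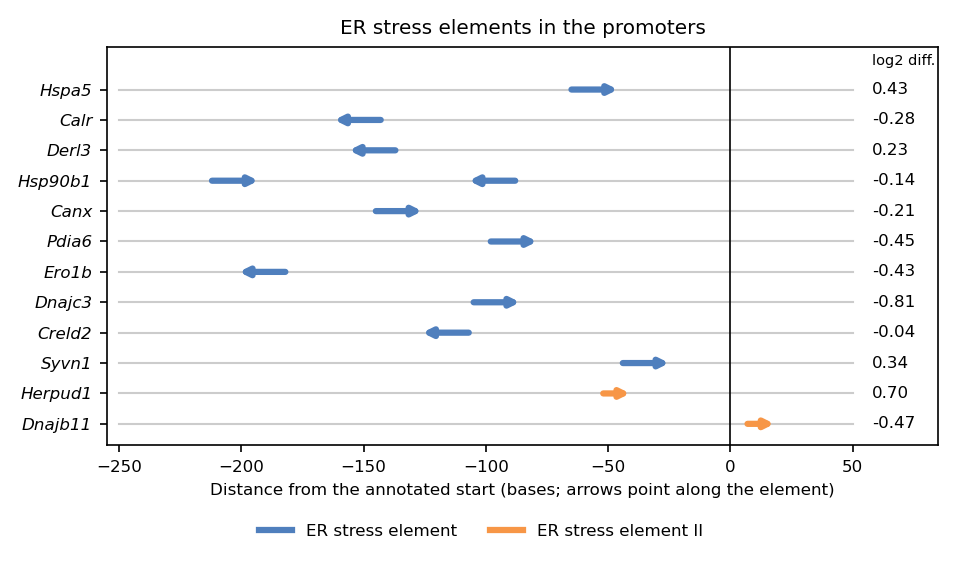
Position of the ER stress element (blue) and the shorter element II (orange) relative to the annotated start, in bases, with arrows along the element and each gene's log2 difference at the right. The longer elements begin 44 (Syvn1) to 212 (Hsp90b1) bases before the start, in both orientations, and the genes that carry them differ by -0.81 to 0.43.

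Genes of a joint list of the PERK branch and the integrated stress response differed far more than the 34 ER genes. Of its 13 genes, 8 (61.5%) passed 2-fold upwards in SPAD and none downwards, against 14.4% and 13.3% of all genes. Their median was 1.39. The list also holds stress kinases other than PERK, and the part of each kinase in these values was not tested. Chac1, a glutathione-degrading enzyme gene induced by Atf4, read 8896 in SPAD and 937 in SVCD (3.37). Ddit3, the stress transcription factor gene also called CHOP, read 5189 and 695 (3.03), and Ppp1r15a, which encodes the phosphatase subunit that restores translation, 37089 and 5499 (2.88). Trib3, a pseudokinase gene of the same response, read 13768 and 2490 (2.59), and Atf4 itself 107243 and 45217 (1.37, and 1.79 on another probe). Nupr1 (1.60), Sesn2 (1.63) and Ppp1r15b (1.39) were also past 2-fold. The kinases of this response were not: Eif2ak1 (0.49), Eif2ak4 (0.50) and Eif2ak2 (-0.71) were, like Eif2ak3, within 2-fold. Atf3, often induced with Ddit3, read 6463 and 7196 (-0.03). Spike-in scaling lowered the median of this list to 0.55. It left 4 genes past 2-fold upwards (5.25% of all genes were) and put 2 past it downwards (37.8% of all genes were). Of 12 of these genes with a promoter window, 0 carried the ER stress element. The C/EBP-ATF response element through which Atf4 acts, searched for as TGATGNAAT, stood in 1 of the 12 (Nupr1), in 0 of the 29 ER genes and in 1.08% of all genes. Only exact matches inside the windows were counted, so sites further from the start or with other letters would be missed.

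**Figure D5:**
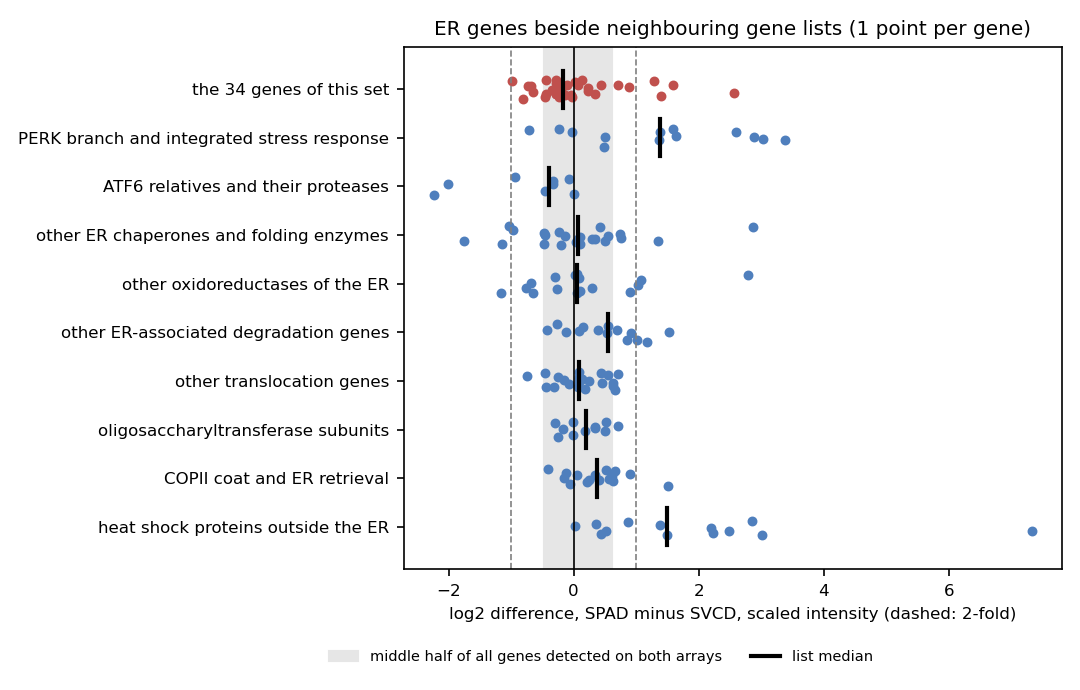
The log2 difference of scaled intensity (SPAD minus SVCD), 1 point per gene, for the 34 ER genes (red) and 9 neighbouring lists (blue), with black bars at list medians, a grey band over the interquartile range of all genes detected on both arrays (-0.48 to 0.60) and dashed lines at 2-fold; genes detected on 1 array stand at their bound. The ER genes centre at -0.17. The joint list of the PERK branch and integrated stress response (1.39) and the heat shock proteins outside the ER (1.5) centre past 2-fold.

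A list of heat shock proteins and partners outside the ER was also examined. Of its 13 detected genes, 8 (61.5%) passed 2-fold upwards in SPAD and none downwards, against 14.4% and 13.3% of all genes. Their median was 1.5. The probes of some genes disagreed. Hspa4 (0.515) and Hspa8 (0.36) were within 2-fold on their brightest probes. Further probes gave -1.12 and -0.96 for Hspa4, and 2.06 and 1.34 for Hspa8. A dim second probe of Dnaja1, which is among the higher genes, gave -0.03. Hspd1 (0.02) and Hspe1 (0.43) encode mitochondrial chaperonins, and without them the 11 cytosolic genes had a median of 2.19. Hspa1a, the inducible form of heat shock protein 70, read 9050 in SPAD and 61.5 in SVCD (7.33), against the 0.43 of its ER counterpart Hspa5. Hspa1a has a near-identical neighbour, Hspa1b, for which no probe was named, so the signal may belong to either, and with normexp background correction the value was 6.22. Hspb8 (3.01) and Dnajb1 (2.85) followed, while Hsp90aa1 was at 1.37 against the -0.14 of Hsp90b1. The median was 0.67 with spike-in scaling, and 1.36 for the 11 cytosolic genes. These contrasts between lists have 1 array per group behind them, and the difference between lists was not tested.

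Among 16 further oxidoreductase genes (median 0.05), 3 were at least 2-fold higher and 1 lower (1 and 6 with spike-in scaling, median -0.78). By the same rule 14.4% of all genes were higher and 13.3% lower (5.25% and 37.8% with spike-in scaling). Ero1a, the hypoxia-inducible partner of Ero1b, read 1229 in SPAD and 195 in SVCD (2.78), so the 2 oxidase genes pointed in opposite directions. Erp29, a luminal chaperone gene, read 23207 and 56902 (-1.17, and -1.14 on another probe), and Pdia5 was at 1.08. Of 23 further chaperone and folding genes (median 0.07), 2 were at least 2-fold higher and 3 lower (1 and 9 with spike-in scaling, median -0.77). Cdnf, the relative of Manf, read 125 and 18.7 (2.86), against -0.72 for Manf, and its value was 1.36 with normexp background correction. Clgn, a testis-enriched relative of calnexin, was detected in SVCD alone and at least 3.39-fold lower, set against the lowest signal well above background on the SPAD array. With normexp the Clgn value was -0.37, within 2-fold. Fkbp7, a prolyl isomerase gene, was at 1.35.

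The ATF6 relatives and their proteases had a median of -0.40. Of these 8 genes 2 passed 2-fold downwards and none upwards, against 13.3% and 14.4% of all genes. With spike-in scaling 6 passed it downwards (median -1.23, and 37.8% of all genes did), and with normexp 1. Creb3l1, a membrane-bound factor linked to collagen secretion, read 344 in SPAD and 1772 in SVCD (-2.24). Creb3l3 read 25.2 and 110 (-2.01, but -0.94 with normexp) and Creb3l2 312 and 651 (-0.94). The other ER-associated degradation genes had a median of 0.54 over 14 detected genes. Of these, 3 were at least 2-fold higher (14.4% of all genes were): Herpud2 (1.52), Ube2j1 (1.17, with 0.22 and 1.47 on further probes) and Ufd1 (1.01). Ufd1 dropped under 2-fold with median, quantile and normexp settings (0.93 to 0.98), as did Ube2j1 with the mean over probes (0.95). With spike-in scaling the median was -0.29 and 0 genes were at least 2-fold higher.

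On the brightest probe of each gene, entry and exit routes of the ER stayed within 2-fold apart from 1 gene. Dimmer probes of Lman1 (1.28), Sec24a (1.29) and Stt3b (1.04) were past 2-fold upwards. The brightest probes of these genes gave -0.13, 0.34 and 0.34. None of 22 further translocation genes (median 0.09) and none of 11 oligosaccharyltransferase subunits (median 0.19) was past 2-fold, against 27.7% of all genes. The largest values were -0.75 for Spcs3 (-0.06 on another probe), 0.71 for Srpr and 0.67 for Srp19, and 0.72 for Dad1 (-0.33 on another probe), 0.52 for Magt1 and 0.50 for Ost4. Of 16 COPII coat and retrieval genes (median 0.37), 1 was past 2-fold (27.7% of all genes were). This was Kdelr3, a receptor that returns escaped chaperones to the ER, which read 2275 in SPAD and 868 in SVCD (1.52), with Kdelr2 at 0.90 and Sar1b at 0.67. With spike-in scaling the medians of these 3 lists were all below 0.

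The cultures also differed in their cell type markers. Mature adipocyte markers were at least 2-fold higher in SPAD in 11 of 13 genes and lower in 1 (median 2.97, with Car3 at 8.56 and Cfd at 7.34), and endothelial markers higher in 9 of 10 (median 3.11, with Sox17 at 3.74 and Erg at 3.43). Macrophage markers were at least 2-fold lower in 8 of 11 detected (median -3.19, Fcgr1 at least 34.6-fold lower and Aif1 at -4.72). Mesothelial markers were lower in 5 of 8 (median -2.74, Krt8 at -5.57 and Krt18 at -5.41), and smooth muscle markers in 6 of 7 (median -3.57, Cnn1 at -5.35 and Acta2 at -3.77). Several of these values rest on a dim signal on 1 of the arrays, which makes their size uncertain. Such signals were those of Car3 (20.6), Cfd (50.6), Sox17 (48.7) and Erg (30.1) in SVCD, and of Krt8 (19.5) in SPAD. The summed intensity in SPAD and SVCD was 157255 and 64222 for adipocyte, 130660 and 313239 for macrophage, and 21238 and 5479 for endothelial markers. It was 1271 and 11772 for mesothelial and 18453 and 247807 for smooth muscle markers. Single bright genes carried much of these sums: without Fabp4 the adipocyte sums were 48760 and 32965, and without Lyz2 the macrophage sums 32232 and 228780. Of 10 markers of plasma and pancreatic acinar cells, cell types rich in ER, Jchain, Cpa1, Prss1 and Pnlip were above background on neither array. Mzb1 (at least 6.73-fold higher) was detected in SPAD alone, and Irf4 (at least 2.36-fold lower) and Tnfrsf17 in SVCD alone. Sdc1 (1054 in SPAD and 1899 in SVCD), Prdm1 (287 and 188) and Cela1 (65.4 and 118) were detected on both arrays. The summed intensity of this list was 1496 in SPAD and 2267 in SVCD. The part of these cell types in the values of the ER genes was not tested.

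Scaling to the spike-in controls in place of the 75th percentile lowered every value by a constant, and the median of all genes detected on both arrays moved from 0.07 to -0.76. The share of higher genes among those past 2-fold was 52.0% with the 75th percentile and 12.2% with the spike-ins. On that scale Dnajb9 was at 1.73, Ern1 at 0.76, Derl1 at 0.57 and P4hb at 0.45, and 17 of the 34 genes were at least 2-fold lower, as were 5317 (37.8%) of all genes. The 34 genes lay 0.24 below the median of all genes under both scalings.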

How the data were processed

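RNA of each population (30 ng) was labelled with Cy3 and hybridised to 1 Agilent array, per the labels' protocols, and the spots were read by Agilent Feature Extraction (version 10.7.3.1, from the submitters' processing notes). The scanner files as deposited hold background-subtracted intensity on a linear scale, per the file headers. The authors' deposited value table is on a log2 scale, and for each of its 39485 probes the 2 columns are mirror images around 0 (tolerance 0.0001, medians 0.16 and -0.16). Its difference matched the scanner log2 difference plus 0.12, so only differences can be read from it, and no source used here states how that scaling was chosen.

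Control spots (1377) and outlier spots (73 and 85) were left out, repeat spots averaged, and each array's 75th percentile over 39425 probes subtracted on the log2 scale. On the SPAD and SVCD arrays 64.5% and 65.6% of probes were well above background. Probes were named through RefSeq (GRCm38.p6), and a gene was represented by its brightest probe. A gene detected on 1 array is given as a bound. The number of arrays limits the precision. The calculation was tested on simulated data. Values were computed with Python 3.11.15 and pandas 2.3.3, and normexp with limma 3.58.1.

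The 34 genes, the lists, the named-gene rule (all 34 genes, the 3 largest differences of each related list, the 2 largest of each marker list, and Atf4, Ddit3, Trib3 and Ppp1r15a) and the alternatives were chosen with earlier results of these data known. Further genes past 2-fold, Atf3, the stress kinases, Hsp90aa1, Hspa4 and Hspa8 were named after their values were seen. The shorter element II and the C/EBP-ATF element were added then too. Alternatives were median, quantile and spike-in scaling, the authors' table, normexp, the mean over probes, no filter on dim probes, genes detected on both arrays only, and outlier spots kept. Leaving Hspd1 and Hspe1 out of the heat shock list was chosen after seeing the data. Normexp used median spot signals.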

Additional observations from a re-analysis of the deposited data

How the results depend on the processing

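Among the 34 genes, 4 passed 2-fold upwards in SPAD and 0 downwards, and the median was -0.17. Under spike-in scaling these became 1, 17 and -1.0, while 5.25% of all genes passed 2-fold upwards and 37.8% downwards. With median scaling 1 gene was at least 2-fold lower (Sdf2l1). In the 7 other alternatives run, the counts were 3 or 4 higher and 0 lower, and the median ran from -0.26 to -0.13. With the mean over probes 3 genes were higher, without Derl1. Apart from spike-in scaling, Os9, Sel1l and Dnajb11 were the genes whose sign turned under an alternative. Over all genes, 3371 of 20884 passed 2-fold upwards with no filter on dim probes, against 2029 of 14074 with it. No paired analysis was possible because each group has 1 array. The largest spot errors are those of Derl3 (0.24) and of Hyou1 and Atf6 (0.12 each), whose signals were 253 or less on each array.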
